A study of Mus musculus with 6 samples.

Results

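The BMP antagonist genes examined here are the 9 genes Nog, Grem1, Fst, Fstl1, Chrd, Chrdl1, Bambi, Sostdc1 and Twsg1, out of the 21755 protein-coding genes of the autosomes and X chromosome. They were chosen by name, as genes whose products hold back bone morphogenetic proteins (BMPs), with earlier results of these data known. The data are H3K4me1 peaks from CUT&Tag, an assay that tethers a transposase to a chromatin mark by way of an antibody and sequences the DNA it cuts out. H3K4me1 is the single methylation of lysine 4 of histone H3, found at active and at poised enhancers and on the flanks of promoters. The samples were whole whisker pads of wild-type mice (strain B6/J2) at embryonic day 12, dissected and dissociated to single cells. The 3 H3K4me1 samples are named replicates 1, 2 and 3 by the pad each title counts, and there were 3 IgG samples that were not analysed here. Nothing in the labels says whether the pads came from separate embryos, so the spread between replicates may be partly technical.

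The labels of replicates 2 and 3 conflict, since the source name gives adult kidney while the title and the series design give whisker pad. Titles were used for grouping. Within 5 kb of the gene body, peaks were found at 20, 20 and 17 of 20 facial mesenchyme genes in replicates 1, 2 and 3, and at 5, 6 and 2 of 18 adult kidney genes. Over all protein-coding genes the share was 24.9, 22.6 and 19.6%, so the kidney genes were above it in replicates 1 and 2 and below it in replicate 3. Of the kidney genes, Slc12a1 and Cubn had a peak in all 3 replicates, Aqp2, Pax2 and Pax8 in replicates 1 and 2, and Slc22a12 in replicate 2 only. Umod, Nphs1 and Slc34a1 were among the 12 with no assigned peak in any replicate. Surface ectoderm genes carried a peak in 9, 9 and 5 of 12 cases, with none at Epcam, Krt14 or Esrp1. In the account of each gene below, percentiles and numbers of peaks are given for each replicate. Replicate 1, which alone has whisker pad in both labels, can thus be read by itself there. Counts and shares over all 3 replicates together, such as those by body length, rest on replicates 2 and 3 as well. The pad is a mixture of cells, and a peak carried by few cells cannot be told apart from a weak mark in many. The lists held 16788, 12969 and 13998 peaks in replicates 1, 2 and 3. Their total signals, which are pileups summed over the bases of a peak, are not scaled to depth. Each peak is therefore placed by its percentile in its own list, in which the middle peak stands at 50. A percentile by total signal rises with peak length, so a second percentile, by signal per base, is given beside the main region of each gene.

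BMPs are secreted growth factors that bind paired receptors on the cell surface, which then phosphorylate Smad proteins that act in the nucleus. Antagonists limit this at several levels. Noggin, gremlin, chordin and their relatives bind the ligand outside the cell, follistatin binds activins and some BMPs, and Bambi resembles a receptor without its kinase. In skin, BMPs restrain the start of new hair placodes, and noggin from the mesenchyme relieves that restraint. Sostdc1 is known from teeth and hair follicles, where it limits their number and spacing.

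H3K4me1 was unevenly spread over the 9 genes. Of the 9, Grem1, Fstl1, Bambi and Sostdc1 had a peak within 5 kb of the body in all 3 replicates. By replicate the counts were 5, 4 and 4 of 9, against 24.9, 22.6 and 19.6% of all protein-coding genes. In all 3 replicates together it was 4 of 9, against 15.5% of all genes. When peaks up to 100 kb away with their nearest start site in the gene were added, Nog joined them, making 5 of 9 against 19.0%. Fst had a peak in replicate 1 only. Chrd, Chrdl1 and Twsg1 had no assigned peak in any replicate, as did 66.4% of all genes.

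Long genes meet more peaks, and most of these genes are short. Of the 5 antagonist genes with a body under 10 kb, Bambi and Sostdc1 carried a peak in all replicates, against 7.10% of all genes of that class. Of the 2 with a body of 10 to 30 kb, Grem1 did, against 11.1%. Of the 2 over 30 kb, Fstl1 did and Chrdl1 did not, against 27.7%. With so few genes in a class these counts are a description.

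The peaks assigned to the 9 genes numbered 12 in replicate 1, 9 in replicate 2 and 10 in replicate 3, or 10.3 ± 1.53 on average (SD, n = 3). Of these, 9, 8 and 8 lay above the middle of their list by total signal. Their median percentile was 66.0, 70.5 and 77.4, a mean of 71.3 ± 5.74 (SD, n = 3). Their median length was 3107, 4139 and 4624 bp, against 2981, 3682 and 3352 bp over the whole lists. They were 0.0715, 0.0694 and 0.0714% of all peaks and held 0.0944, 0.0989 and 0.126% of the signal. Overlapping peaks were joined across the lists into 12 regions. A peak was present in every replicate at 9 of them and in a single replicate at 3. Over the whole lists, 46.3% of regions had a peak in all 3. Fstl1 alone gave 5, 5 and 6 of the assigned peaks and most of the regions found in every replicate. The pooled percentile, length, signal and recurrence thus rest largely on that gene.

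**Figure D1:**
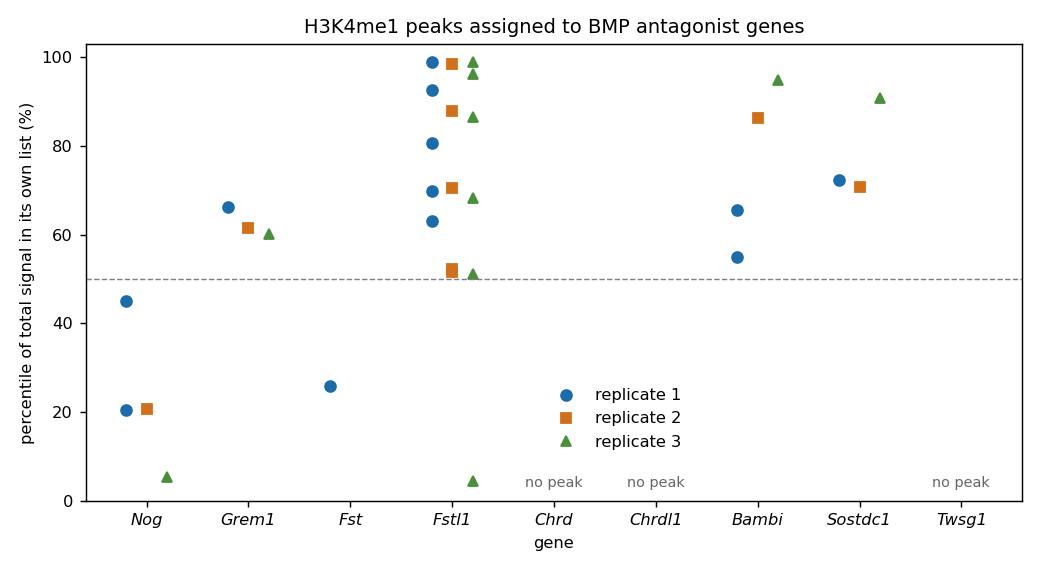
Percentile of total signal, within its own list, of every H3K4me1 peak assigned to each of the 9 genes (x axis). Each point is 1 peak of replicate 1, 2 or 3, and the dashed line at 50 is the middle of a list. Fstl1 has 5, 5 and 6 peaks reaching 98.9, 98.5 and 98.9, the peaks of Grem1, Bambi and Sostdc1 all lie above the line, those of Nog and Fst lie below it, and Chrd, Chrdl1 and Twsg1 have none.

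The sequence at the highest pileup is shown for 4 of the 5 genes with a region in all replicates, and not for Bambi. It is taken from the strongest such region of each gene, since these are the bases over which most fragments lay in replicate 1. They are windows of GRCm38 with 100 bp on either side of the highest pileup, all on the plus strand. The window of Fstl1 is chr16:37788511-37788711 in intron 2, that of Sostdc1 is chr12:36315328-36315528 in intron 1, that of Grem1 is chr2:113757567-113757767 in intron 1, and that of Nog is chr11:89327842-89328042, between genes. Capitals mark matches, on either strand, to the SMAD letters GTCTG and GGCGCC and the TCF/LEF letters CTTTGAA.
Fstl1: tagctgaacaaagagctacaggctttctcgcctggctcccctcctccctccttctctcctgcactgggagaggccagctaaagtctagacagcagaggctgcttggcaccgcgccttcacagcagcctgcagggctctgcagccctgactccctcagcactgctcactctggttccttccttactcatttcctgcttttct
Sostdc1: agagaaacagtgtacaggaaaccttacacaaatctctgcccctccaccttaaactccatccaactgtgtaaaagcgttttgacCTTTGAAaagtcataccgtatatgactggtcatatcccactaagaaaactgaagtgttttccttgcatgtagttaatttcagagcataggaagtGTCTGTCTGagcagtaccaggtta
Grem1: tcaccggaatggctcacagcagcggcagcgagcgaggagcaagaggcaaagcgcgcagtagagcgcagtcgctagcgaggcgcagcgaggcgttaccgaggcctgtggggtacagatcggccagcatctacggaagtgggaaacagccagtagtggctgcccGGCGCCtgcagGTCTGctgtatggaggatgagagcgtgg
Nog: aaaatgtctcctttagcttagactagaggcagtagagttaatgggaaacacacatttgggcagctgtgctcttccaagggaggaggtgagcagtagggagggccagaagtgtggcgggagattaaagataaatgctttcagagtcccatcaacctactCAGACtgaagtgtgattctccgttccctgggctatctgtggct

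Among the antagonists that bind the ligand, Sostdc1 was the gene whose start site lay under a peak in every replicate. It is a short gene of 4.3 kb on the plus strand of chromosome 12, from 36314139 to 36318452, and its secreted product restrains both BMP and Wnt signals. Its single peak ran from 36312769 to 36316045 in replicate 1, from 36312775 to 36316252 in replicate 2 and from 36312394 to 36317997 in replicate 3. The peak thus began 1745 bp or less before the start site and covered exon 1 and part of intron 1, and in replicate 3 it went on into exon 2, the last exon. By total signal the peak stood at percentile 72.2, 70.7 and 90.7, and by signal per base at 79.5, 84.5 and 93.0. Replicate 3 was the highest on both scales. The highest pileup lay 1289 bp into the gene in replicates 1 and 3, at the same base, and 95 bp into it in replicate 2. No other peak within 100 kb was assigned to Sostdc1 in any replicate.

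Grem1 encodes gremlin, a secreted antagonist best known from the limb bud. It lies on the minus strand of chromosome 2, from 113746164 to 113758646, and has 2 exons. Each replicate had 1 peak, from 113755762 to 113758634, from 113755776 to 113758701 and from 113755598 to 113758466. The peak covered the first part of intron 1 and most or all of exon 1 in replicates 1 and 2, while in replicate 3 it lay in intron 1. Its edge lay 12 bp inside the gene in replicate 1, 55 bp before it in replicate 2 and 180 bp inside it in replicate 3. Of the region, 86.7% was covered in all 3 replicates. The percentile by total signal was 66.3, 61.5 and 60.3 and by signal per base 77.5, 81.8 and 78.7. The highest pileup was 979, 1018 and 1748 bp into the gene. The 250 bases before the start site given by RefSeq, with a GC content of 72.0% and 24 CG pairs, were covered over 0, 53 and 0 bp.

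Elements that act on Grem1 in the limb bud are known to lie in the body of the next gene, Fmn1, which is 389 kb long and ends 29.4 kb from it. Peaks there are nearest to other start sites and were not assigned to Grem1. Fmn1 itself held 3, 2 and 2 peaks in replicates 1, 2 and 3. These made 3 regions, and 2 of the 3 recurred in every replicate. The one with the higher mean percentile, from 113427444 to 113431352, lay 327 to 331 kb from the start site of Grem1 and stood at percentile 44.7, 22.2 and 50.6 by total signal. The other, from 113439880 to 113442770, lay 316 to 319 kb away and stood at 37.3, 30.8 and 18.6. All of these values but 1 were below the middle of the list by total signal. The order of the 2 regions was the opposite in replicate 2.

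Nog encodes noggin, which covers the receptor-binding face of BMPs. It is a gene of 1 exon on the minus strand of chromosome 11, from 89300638 to 89302332, and no peak lay within 5 kb of it. The nearest peak was 9.94, 23.4 and 23.9 kb before its start site in replicates 1, 2 and 3. The region in all replicates, 89325725 to 89328775, lay 23.4 to 26.4 kb before the start site and outside any annotated gene. Its percentile by total signal was 20.6, 20.8 and 5.39, and by signal per base 9.54, 21.97 and 20.3. In replicate 3 its total signal was 1.05 times the lowest in the list, so it lay close to the limit of the list. The highest pileups of this region were 1417 bp apart, so the window printed for Nog holds the highest pileup of replicate 1 but not those of the others. A further peak of replicate 1, from 89312275 to 89315287 at percentile 45.0, had no counterpart in replicates 2 and 3.

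**Figure D2:**
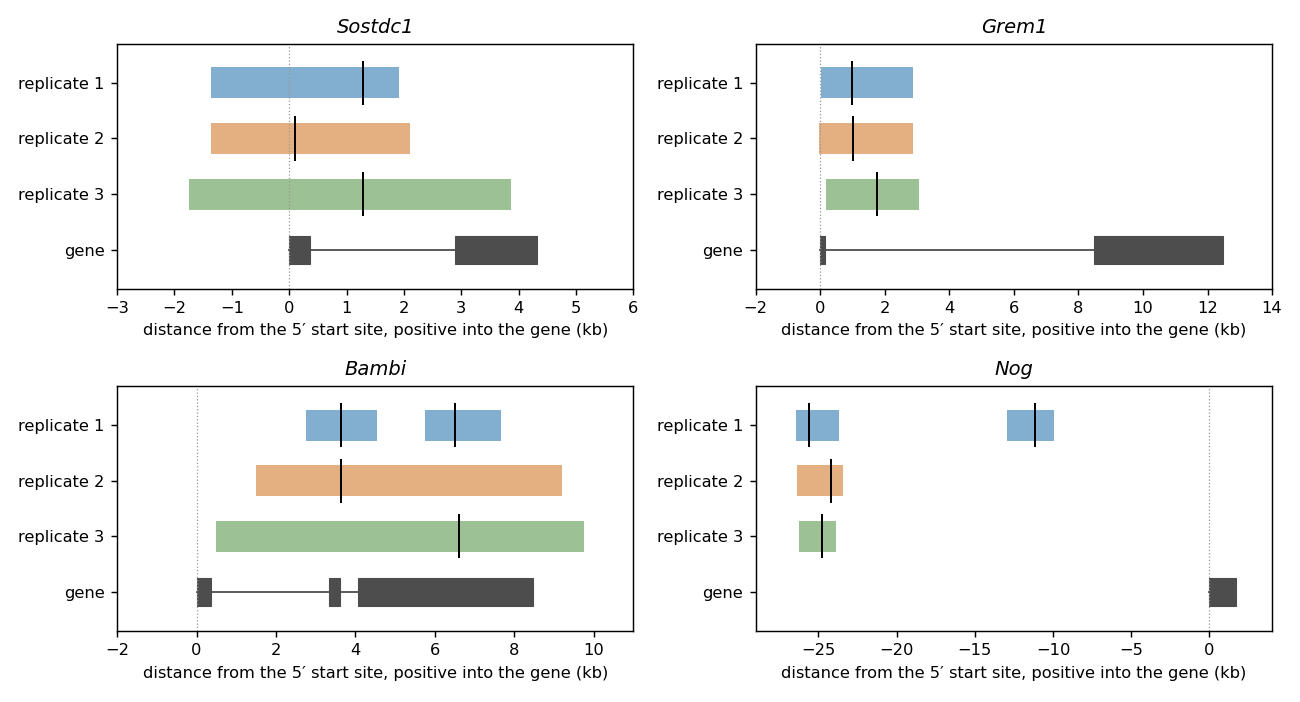
H3K4me1 peaks assigned to Sostdc1, Grem1, Bambi and Nog against the distance from the 5′ start site in kb, positive into the gene. Bars are peaks of replicates 1, 2 and 3, black ticks the highest pileup, and grey boxes the exons of 1 transcript. The peak of Sostdc1 spans the start site, that of Grem1 begins at it, those of Bambi lie within and just past the gene, and those of Nog lie 9.94 kb or more before it.

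The chordin group had no assigned peak. Chordin binds BMPs in the extracellular space until metalloproteases cut it, chordin-like 1 binds them in a like way, and Twsg1 forms a complex with chordin and BMP that can hold back or release the ligand. Around Chrd, on chromosome 16 from 20733127 to 20742384, the nearest peak was 30.2 kb away in replicate 1, 16.7 kb in replicate 2 and 463 kb in replicate 3, and its nearest start site was that of Fam131a, Clcn2 and Ephb3. Around Chrdl1, on the X chromosome from 143285674 to 143394262, the nearest peak was 88.7, 221 and 369 kb away. Around Twsg1, on chromosome 17 from 65921972 to 65951226, it was 48.4, 34.7 and 312 kb away. For each of the 3 genes the gap was the widest in replicate 3. The RefSeq promoters of Chrd and Twsg1 had a GC content of 78.0 and 64.4%, and 0 of their 250 bases lay under a peak in any replicate. Only the top 1% of signal blocks entered a list, so these genes are not shown to lack the mark.

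In the follistatin group, Fst and Fstl1 stood far apart in the number of peaks. Fst encodes follistatin, which binds activins tightly. It lies on the minus strand of chromosome 13, from 114452290 to 114458951. Replicate 1 had a peak from 114455613 to 114457619, over exons 2 and 3 and the introns beside them, at percentile 25.8 by total signal and 45.0 by signal per base. Replicates 2 and 3 had no peak within 100 kb, and the nearest were 284 and 183 kb away. Its total signal was 1.33 times the lowest in that list. The region had a GC content of 54.4%, the highest of the 12 regions.

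Fstl1 encodes a secreted glycoprotein that shares a domain with follistatin and has been found to bind BMP4. It spans 59.6 kb on the plus strand of chromosome 16, from 37776873 to 37836514, with 11 exons, and carried 5, 5 and 6 assigned peaks. As many or more were assigned to 4.67, 3.24 and 2.57% of all genes in replicates 1, 2 and 3. These shares are over genes of every length and were not matched for body length. In each replicate 4 peaks lay within the gene, all before exon 4, and 1 recurrent peak lay upstream.

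The strongest region of Fstl1 was in intron 2, from 37783396 to 37795432, or 6.52 to 18.6 kb into the gene. Its peak was 7922, 12037 and 9422 bp long in replicates 1, 2 and 3, with a total signal of 304128, 406605 and 273571. By total signal it ranked 190 of 16788, 192 of 12969 and 161 of 13998, at percentile 98.9, 98.5 and 98.9. By signal per base it stood at 99.3, 97.7 and 99.3. The highest pileup was 291, 312 and 216 fragments, against a median of 37, 47 and 38 for the peaks of each list. It lay at 37788611, 37788642 and from 37788616 to 37788619, within 31 bp over the 3 replicates. Over the 7618 regions with 1 peak in each replicate the median distance between highest pileups was 479.5 bp, with quartiles of 129 and 1101 bp. Over the 8 such regions of the antagonist genes it was 1098 bp, so the close placing in this region was not shared by most of them. The 8 include this region, and most of them are in Fstl1 itself.

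The other regions of Fstl1 were weaker. The region from 37778067 to 37782055, also in intron 2 and 1.19 to 5.18 kb into the gene, stood at percentile 63.0, 52.3 and 68.3 by total signal. The one from 37804468 to 37810014, 27.6 to 33.1 kb into the gene and still in intron 2, stood at 80.6, 70.5 and 86.4. The one from 37811405 to 37815811 reached over exon 3 and stood at 69.8, 51.5 and 51.2. Its highest pileups were 43.5 bp apart or less, and 93.2% of it was covered in all replicates. By signal per base this region stood at 47.9, 32.4 and 20.2, below the middle of each list. The other recurrent regions of Fstl1 were above the middle per base too. Upstream, the region from 37727919 to 37735167 lay 41.7 to 49.0 kb before the start site, outside any annotated gene, at percentile 92.6, 87.9 and 96.2. It was the next strongest in each replicate after the one in intron 2, and its highest pileup was at 37730945 to 37730946 in both replicate 1 and replicate 2. Replicate 3 alone had a further upstream peak, from 37740803 to 37743051, at percentile 4.51. No peak lay within 1 kb of the start site in any replicate, and the 250 bases of the RefSeq promoter were covered over 0 bp in each.

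**Figure D3:**
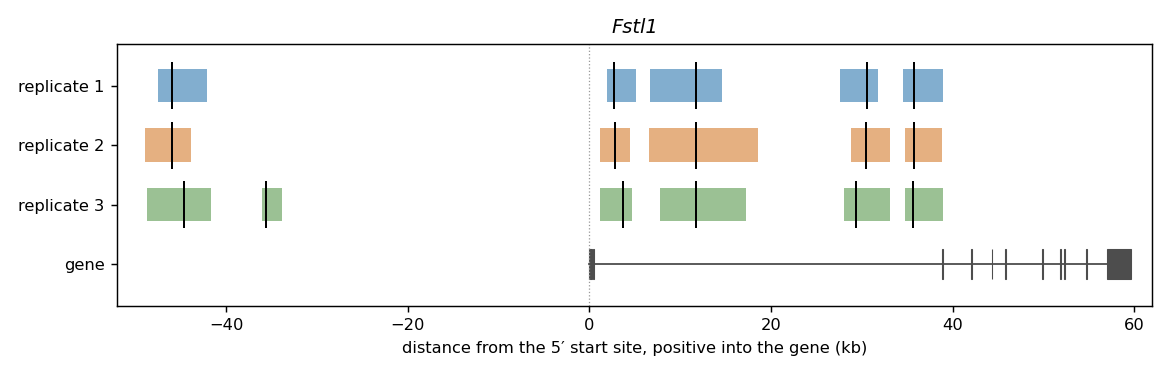
H3K4me1 peaks assigned to Fstl1 against the distance from its 5′ start site in kb, positive into the gene. Bars are peaks of replicates 1, 2 and 3, black ticks the highest pileup, and grey boxes the exons of 1 transcript. The same 5 stretches recur in all replicates, 1 of them 41.7 to 49.0 kb before the gene and 4 within its first 38.9 kb, and the upstream peak nearest to the gene is in replicate 3 alone.

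Bambi acts at the receptor. Its product is a transmembrane protein that resembles a BMP receptor but has no kinase, and its expression often follows that of BMPs. It lies on the plus strand of chromosome 18, from 3507923 to 3516404, with 3 exons. Replicate 1 had 2 peaks, from 3510668 to 3512466 and from 3513686 to 3515587, whereas replicate 2 had 1 from 3509411 to 3517129 and replicate 3 had 1 from 3508423 to 3517674. These merged into 1 region of 9252 bp over most of the gene, with exon 2, all of the last exon and 4007 untranslated bases. The peaks stood at percentile 54.9 and 65.6 in replicate 1, 86.3 in replicate 2 and 94.9 in replicate 3 by total signal. By signal per base they stood at 88.4 and 93.9, at 65.7 and at 81.7, so the order of the replicates by total signal did not hold per base. The highest pileup of replicate 2 lay on that of the first peak of replicate 1, 3625 bp into the gene. That of replicate 3, at 3514537 to 3514538, lay beside that of the second peak of replicate 1, at 3514418 to 3514421. Only 40.0% of the region was covered in all replicates, the lowest share among the 9 recurrent regions, whose median was 58.4% against 64.7% over all regions.

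Peaks over a start site were counted as well. Within 1 kb of an annotated protein-coding start site, Grem1 and Sostdc1 had a peak in all 3 replicates, 2 of 9 genes against 6.17% of all genes. Bambi had one in replicate 3 only, and Fst in replicate 1 only, beside an internal start site. Fstl1, with the most peaks, had none.

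The share of signal in replicate 3, relative to that in replicate 2, was then set against GC content. Which of the 2 libraries gave rise to the trend was not tested. Over all regions in the 3 replicates, the median log2 ratio of the share of signal in replicate 3 to that in replicate 2 fell from 0.98 in the tenth of regions with the lowest GC content (median 41.4%) to -0.84 in the tenth with the highest (median 54.5%). Sostdc1, at a GC content of 41.8%, had a log2 ratio of 1.06, within the quartiles of its GC group, whose median was 0.98. Bambi, at 41.9%, had 0.72, just under the lower quartile of the same group, 0.74. The higher percentiles of both genes in replicate 3 by total signal thus stood beside a low GC content, whose part in them was not tested. The strongest region of Fstl1, at 45.9%, had -0.11 against quartiles of 0.13 and 0.56, and Grem1, at 50%, had 0.05 against quartiles of -0.53 and -0.06. In all, 5 of the 9 recurrent regions lay within the quartiles of their GC group, 2 above and 2 below.

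**Figure D4:**
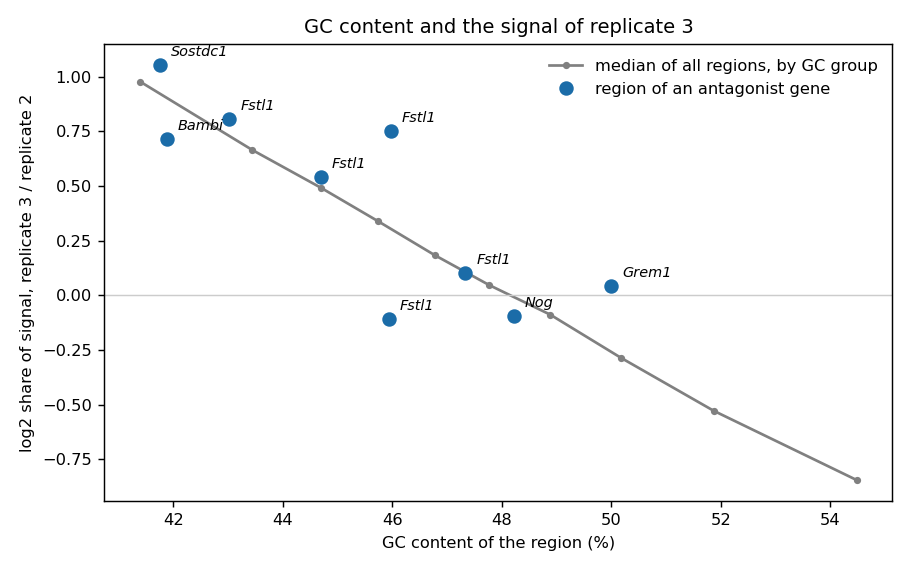
Log2 ratio of the share of signal in replicate 3 to that in replicate 2 against the GC content (%) of the region. Blue points are the 9 regions of antagonist genes with a peak in all replicates, and the grey line joins the medians of 10 groups of all such regions. Sostdc1 and Bambi lie at the left with 1.06 and 0.72, and Grem1 lies at the right with 0.05, above the line.

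The letters of a few binding motifs were searched on both strands of such windows, 1 for each of the 12 regions. The TCF/LEF letters CTTTGAA were found in 2 of the 12 windows, that of Sostdc1 and that of the upstream Fstl1 peak of replicate 3, against 3.66% of the 19246 windows of all regions. The other TCF/LEF letters, CTTTGAT, were in 0 of 12, against 2.31%. The SMAD letters GTCTG were in 7 of 12, against 47.3%, and GGCGCC in 1 of 12, the window of Grem1, against 1.64%. The PRDM1 letters GTGAAAG were in 0 of 12, against 2.93%. These counts depend on the replicate that places the window, since with the last replicate that had a peak GGCGCC was in 0 and GTGAAAG in 2 of 12, a choice made after seeing the data. None of the letters searched was in the window of the strongest Fstl1 region. A match of so few letters is a description of the sequence and not a binding site.

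Other genes of the pathway give the setting. Within 5 kb of the body and in all replicates, 8 of 14 BMP ligand genes had a peak, namely Bmp2 to Bmp7, Gdf5 and Gdf6. Bmp7 had 15, 12 and 11 assigned peaks, against 5, 5 and 6 at Fstl1, and its strongest peak stood at percentile 99.4, 99.4 and 99.3 by total signal. Among the receptor genes 4 of 7 had one in all replicates, which were Bmpr1a, Bmpr1b, Acvr1 and Acvrl1. Of the BMP Smad genes 4 of 6 did, which were Smad1, Smad5, Smad6 and Smad7. The inhibitory Smad6 and Smad7, which stop the signal inside the cell, had 8, 7 and 7 and 14, 11 and 14 assigned peaks. Of the target genes 4 of 6 did, which were Id1, Id3, Msx1 and Msx2. Of the proteases that cut chordin, Bmp1 and Tll2 did in all replicates and Tll1 in replicate 3 only. In replicate 1 by itself, 9 of 14 ligand, 5 of 7 receptor, 4 of 6 Smad and 5 of 6 target genes had a peak within 5 kb.

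A list of 11 further antagonist genes gave 5, which were Cer1, Nbl1, Bmper, Kcp and Crim1, and Dand5, Chrdl2 and Fstl3 had no assigned peak in any replicate. In replicate 1 by itself, 7 of these 11 had a peak within 5 kb. Bmper, whose product binds BMPs through chordin-like repeats, had 8, 6 and 9 assigned peaks. The 9 antagonist genes, at 44.4%, and the 11 further genes, at 45.5%, were thus both above the 15.5% of all genes as counts. A difference from the ligands, at 57.1%, was not tested. The shares of the pathway lists were not matched for body length. Over all genes the share was 27.7% for bodies over 30 kb and 7.10% for those under 10 kb.

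**Figure D5:**
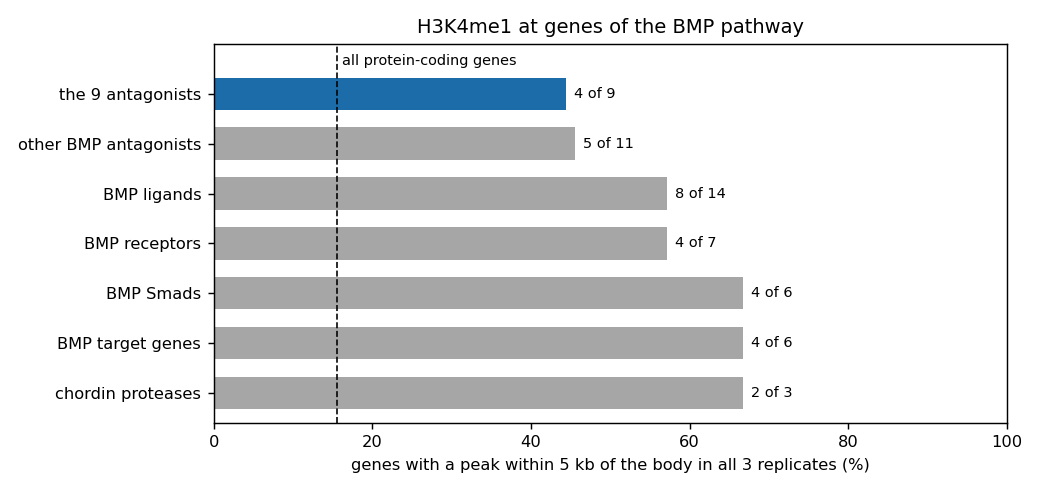
Share of the genes of each BMP pathway list with an H3K4me1 peak within 5 kb of the body in all 3 replicates (%), with the number of genes beside each bar. The dashed line is the share of all protein-coding genes, 15.5%, not matched for body length. The 9 antagonist genes are at 44.4% and the other lists between 45.5 and 66.7%.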

How the data were processed

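CUT&Tag for H3K4me1 was analysed in 3 mouse whisker pads at embryonic day 12. The authors ran SEACR 1.3 (stringent mode) on each replicate by itself, with no IgG control, and retained the top 1% of signal blocks. The submitters' processing notes also name Bowtie2 2.3, SAMtools 0.1.19, bedtools and the build mm10. The deposited values are the total signal of each peak, or fragment pileup summed over its bases, and its highest signal, in whole numbers not scaled to depth. Which weak peaks enter a list of this kind depends on its depth and background.

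Genes were those of GENCODE M21 on chromosomes 1 to 19 and X, with 54132 protein-coding start sites. A peak was assigned to a gene when it overlapped the body or 5 kb on either side by at least 1 bp, or lay within 100 kb with its nearest start site in that gene. Signal was ranked within each list, and sequence was read from GRCm38. Python 3.11.15, numpy 2.4.6 and scipy 1.17.1 were used, and the assignment was tested on simulated data. The 9 genes and the pathway lists were chosen with earlier results of these data known. The genes named are these 9, the genes beside them or their peaks, and pathway genes in classes of 5 or fewer, while Bmp2 to Bmp7, Gdf5, Gdf6 and the marker genes were named after their values were seen. A single group of 3 samples holds no contrast, so no test was made. The 3 IgG samples were not analysed here. Alternatives were stricter lists, other flanks, distances and signal measures, and each replicate left out in turn.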

Additional observations from a re-analysis of the deposited data

How the results depend on the processing

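In all, 152 alternative values were computed, of which 142 stayed within the spread between replicates or within 1.5 times a count. The 142 include values that could not have moved, such as means with 1 replicate left out. They also include Fst, whose mean of 0.333 peaks fell to 0 with either stricter list, within its SD of 0.577. The number of genes with a peak within 5 kb in all replicates was 4 under every alternative run, and the number with any assigned peak was 5, or 4 with stricter lists. The mean number of assigned peaks was 8.33 with the stronger 50% of each list and 8.67 with the strongest 10000 peaks, since fewer peaks entered. Nog then had a mean of 0 and 0.333 peaks, and 2.33 when only the 5′ start site of each gene was used. Grem1 had a mean of 3.33 with the peaks over Fmn1, Fstl1 had 6 and Chrd 0.333 with a flank of 20 kb. When windows were centred on the last replicate with a peak, a choice made after seeing the data, GGCGCC was in 0 and GTGAAAG in 2 of the 12.

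Leaving out each replicate in turn left the counts of genes and of regions as they were. The mean number of assigned peaks was 9.5, 11 and 10.5 without replicates 1, 2 and 3. A mean of 3 values cannot move by as much as its SD when 1 of them is left out. That such means stayed within the spread was thus fixed beforehand and shows nothing. No paired analysis was possible because the partner of each H3K4me1 sample by number is an IgG sample, not analysed here. The lists hold no read numbers, so depth was not measured, and whether the mark is present at a gene with no peak cannot be said.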
